A study of Sus scrofa with 12 samples.

Results

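Genes of excitation-contraction coupling, 10 of the 28224 annotated genes on chromosomes, were followed in the loin muscle, longissimus dorsi (LD), of purebred Iberian pigs. They were listed by name: RYR1, CACNA1S, CACNB1, CACNG1, STAC3, JPH1, JPH2, TRDN, SLN and PLN. All 10 had a value above 0 in all 12 libraries, so that a filter on low values removed none of them. The 12 pigs were castrated males, none of them siblings of another, fattened outdoors on acorns and grass, and each gave 1 paired-end RNA library. The 6 pigs of the H group were those with the highest estimated breeding values (EBVs) for intramuscular fat (IMF), from 2.78 to 3.48, and the 6 of the L group those with the lowest, from -1.46 to -1.31. The comparison of H with L asks which genes differ between pigs selected at the extremes of this value. The pigs of this population were slaughtered at heavy weight in the second year of life. The age, slaughter batch and sequencing lane of single pigs are not stated in the labels or the methods, and they entered no fit.

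In a skeletal muscle fibre the action potential runs inward along the transverse tubules, which meet the sarcoplasmic reticulum at junctions called triads. There the voltage sensor of the tubule, a calcium channel made of CACNA1S with the subunits CACNB1 and CACNG1 and the adaptor STAC3, opens the calcium release channel RYR1 by direct mechanical contact. Junctophilins (JPH1, JPH2) hold both membranes together, and triadin (TRDN) ties RYR1 to calsequestrin, the calcium store inside the reticulum. Calcium is then pumped back by SERCA pumps, which the small membrane proteins sarcolipin (SLN) and phospholamban (PLN) inhibit. RYR1 is known in pig breeding as the halothane gene, since a coding variant in it makes pigs prone to malignant hyperthermia and pale, soft meat. Genotypes were not analysed here.

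Values are in FPKM, the sequenced fragments of a transcript relative to its length and to the size of the library, which is a level per length. A gene's value is the sum over its assembled transcripts, brought to a common scale over the libraries by median ratios. The libraries held 30535 to 44609 transcripts and a summed coverage of 9.88 to 17.6 gigabases, and the coverage behind 1 FPKM, a measure of depth, ran from 7.50 to 11.5 with both groups overlapping. Each library was assembled by itself, so that a transcript missed by the assembly is absent from its file, and a gene without a transcript is called listed at 0 below. CASQ1, the calsequestrin of fast fibres, was listed at 0 in H1, H2, H3, L2 and L4 while it reached 2827 FPKM in H4. An abundant gene can thus be listed at 0, and the cause of these zeros was not tested.

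All 10 genes ranked among the 643 highest of 12401 genes tested. SLN had the highest mean level over the 12 pigs, 1297 ± 864 FPKM (SD, n = 12), followed by TRDN at 481 ± 122, RYR1 at 458 ± 181 and STAC3 at 182 ± 45.6. CACNA1S at 98.5 ± 43.7, JPH1 at 88.5 ± 24.4, PLN at 84.4 ± 27.7, CACNB1 at 75.6 ± 19.1, JPH2 at 64.5 ± 19.1 and CACNG1 at 64.2 ± 17.6 FPKM formed the lower end (SD, n = 12 each). The ranges of all neighbours in this order overlapped over the pigs. Compared within each pig, some neighbours kept their order in most pigs and others did not, which was not tested. TRDN lay above RYR1 in 6 of 12 pigs, CACNA1S above JPH1 in 6 and JPH2 above CACNG1 in 6. By contrast, RYR1 lay above STAC3 in 11, STAC3 above CACNA1S in 11 and CACNB1 above JPH2 in 10. SLN lay above TRDN in 8 of 12 pigs only, and the 4 exceptions are pigs whose SLN transcript was unusually long, as described with that gene. In another count, the mean coverage of each transcript was credited to its bases on annotated exons and divided by the gene's exonic length. That mean is over the whole transcript, so that any intron bases in it enter the mean. By this count SLN stayed first, RYR1 moved above TRDN, and PLN above JPH1 and CACNA1S. When only transcripts with an annotated intron chain were counted, SLN fell to the third place with 140 FPKM, after RYR1 at 226 and TRDN at 183 FPKM.

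**Figure D1:**
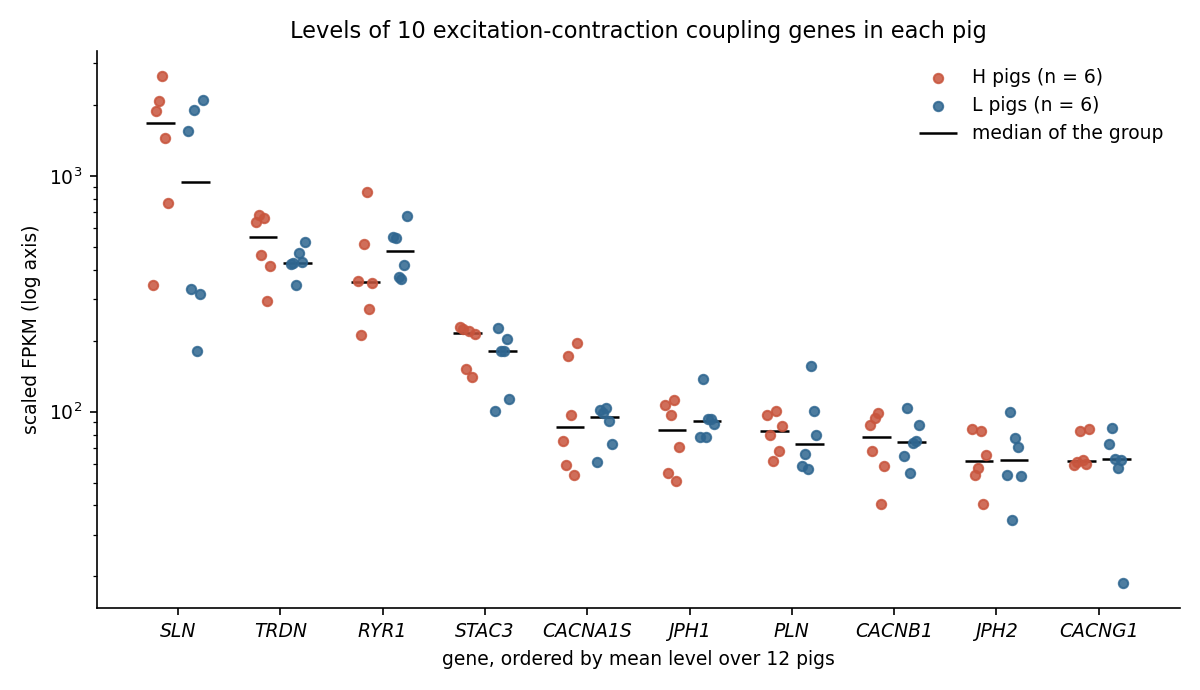
Scaled FPKM of the 10 genes on a log axis, 1 point per pig (red H, blue L, n = 6 each), with the group median as a black line. The H and L points overlap for every gene; SLN spans 180 to 2652 FPKM, and the lone low CACNG1 point is L6 at 18.8 FPKM.

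No difference between the H and L pigs passed the test for any of the 10 genes. By limma with Benjamini-Hochberg adjustment over 12401 genes, 0 of the 10 passed an adjusted p of 0.1, and the background was 1 gene called, 0.00806%. At an unadjusted p under 0.05 it was 0 of 10 against 904 genes or 7.29% of those tested, and the smallest unadjusted p of the 10 was 0.252, for SLN. For 7 genes the estimate was above 0 and for 3 below, with a median log2 fold change of 0.08 (H minus L), beside a median of 0.003 and 50.5% above 0 over all genes tested. All fold changes given below are log2 values, H minus L, unless called a ratio, so that 0 means equal levels. The H and L pigs overlapped for each of the 10 genes, while the groups did not overlap for 70 genes or 0.564% of those tested. These tests compare pigs, 1 library each, so that p-values set the difference between H and L against the spread between animals of a group. That spread also holds differences between the separate assemblies. In such bulk RNA, fewer fibres of a type and less RNA per fibre cannot be told apart.

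RYR1 (chromosome 6, 47339759 to 47458457, plus strand), the release channel itself, reached 211 FPKM in the lowest H pig, 355 at the median and 858 in the highest. In the L pigs it ran from 367 through a median of 482 to 674 FPKM. H2 and H5 were the lowest and H4 the highest of all, so that the L pigs lay inside the range of the H pigs. The log2 fold change was -0.31 ± 0.30 (SE, H minus L; limma adjusted p = 0.832), with a 95% confidence interval from -0.97 to 0.35, and an exact permutation test over all arrangements of 6 pigs against 6 gave a two-sided p of 0.364 (the smallest it can give is 0.0022). Without H4 the value was -0.54 (limma unadjusted p = 0.048, adjusted p = 0.758). That contrast keeps L pigs whose values were also summed from pieces, as described next.

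The high value of H4 was a sum that included pieces. Its full-length RYR1 transcript of 15312 bases carried 224 FPKM, while a piece of 3233 bases carried 195 and a piece of 1448 bases 439. Each piece counts per its own length in the sum. H4 was not alone in this. L6, the next highest pig, held no full-length transcript, and its pieces carried 228, 219 and 227 FPKM. L1 likewise held pieces only, of 211 and 337 FPKM. H5, L3 and L5 held pieces beside full-length transcripts. The complete annotated chain of 105 exons was assembled in 8 libraries (5 H, 3 L), and none of the 103 internal exons was skipped in any library. Exon 77 was included with its annotated ends in 11 libraries, while the only transcript of H2 started it 1 base upstream, as did a transcript in L1 and in L5. FPM is a value without the division by length, and multiplies each FPKM by the transcript's length in kilobases. It was chosen after the data were seen. In FPM H4 stood at 4461, L6 at 4529 and L1 at 3788, in a range of 2465 to 8387. The highest pig was L2, and the fold change was -0.23 ± 0.29 (SE). The shortest internal exon of RYR1, 18 bases long and so a whole number of codons, is shown because none of the libraries skipped it; capitals mark the exon, with 10 intron bases on each side (chr6:47419834-47419871, Sscrofa11.1, plus strand).
RYR1 exon: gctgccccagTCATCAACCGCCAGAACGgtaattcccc

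CACNA1S (chromosome 10, 23503701 to 23567797, minus strand), the pore and voltage-sensing subunit, ran from 54.1 through a median of 86.0 to 195 FPKM in the H pigs. In the L pigs it ran from 61.1 through 95.1 to 103 FPKM. H6 and H3 stood above the other 10 pigs. The log2 fold change was 0.15 ± 0.32 (SE; limma adjusted p = 0.926), with an interval from -0.54 to 0.84. In 9 libraries the annotated chain of 44 exons was assembled. In H2 and H3 a transcript of 45 exons spanned the gene, with 1 new intron and an end 2889 and 3835 bases past the annotated 3′ end, and H3 also held a piece of 9 exons at 86.1 FPKM and one of 32 exons at 65.0. In H6 the gene was assembled in pieces only. In FPM the spread between the 12 pigs shrank from a coefficient of variation of 44.4% to 23.1%, with the estimate at -0.25 ± 0.19 (SE).

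CACNB1 (chromosome 12, 23038185 to 23060504, plus strand), the intracellular beta subunit that brings the channel to the triad, ran from 40.6 through 77.8 to 98.4 FPKM in the H group and from 55.2 through 74.4 to 103 FPKM in the L pigs. H5 was the lowest and L2 the highest, and the fold change was -0.07 ± 0.23 (SE; limma adjusted p = 0.952). Its transcripts showed a choice between exons that was the same in all 12 pigs. A 20-base exon that the annotation places in 1 of its forms was skipped in all 12 libraries, and the 155-base exon upstream of it was used in its place. Both lengths leave a remainder of 2 when divided by 3, so that either exon keeps the same reading frame downstream. The long form of this exon is known from the beta-1a subunit of skeletal muscle and short forms from other tissues. Both are shown with the exon in capitals and 10 intron bases on each side (chr12:23048374-23048548 and chr12:23049545-23049584, Sscrofa11.1, plus strand), since they carry the clearest splicing choice in the data.
CACNB1 used exon: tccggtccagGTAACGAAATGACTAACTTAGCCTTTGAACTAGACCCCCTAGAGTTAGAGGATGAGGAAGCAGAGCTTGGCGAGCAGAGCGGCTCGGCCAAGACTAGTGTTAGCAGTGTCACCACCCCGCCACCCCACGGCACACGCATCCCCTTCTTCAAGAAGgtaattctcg
CACNB1 skipped exon: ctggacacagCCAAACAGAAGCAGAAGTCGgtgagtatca

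The ends of CACNB1 varied more. Transcripts without the most downstream annotated exon were counted as having the short 3′ end. They stopped in an extension of the penultimate exon, or within that exon in H5, L1, L2, L4 and L5. There, a long form assembled in part cannot be told apart from a short one. The short end carried 84.8% ± 8.83 of the gene's FPKM in the H pigs and 75.2% ± 16.9 in the L pigs (SD, n = 6 each). Within the L pigs L1 stood apart at 41.2%, while the other L pigs lay between 78.4 and 86.3%. Transcripts from the first of the annotated starts carried 25.2 to 84.7% of the FPKM over the 12 pigs, with H6 highest and a median of 32.1%. These shares rest on Cufflinks' division of reads among forms and were not tested.

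CACNG1 (chromosome 12, 13462589 to 13481651, plus strand), the gamma subunit, was the most even gene among the H pigs, from 59.3 through 62.0 to 84.1 FPKM. In the L pigs it ran from 18.8 through 62.8 to 85.2 FPKM, and the next lowest L pig after L6 was L4 at 57.5 FPKM. The transcript of L6 was 7049 bases long with 19.2% of its bases on annotated exons, against 1520 to 3695 bases for the longest transcript of the other pigs. In FPM L6 stood at 129 within a range of 93.4 to 158. The fold change was 0.30 ± 0.30 (SE; limma adjusted p = 0.836), it was -0.002 without L6 and -0.02 ± 0.13 (SE) in FPM. In 9 of 12 libraries the gene carried a chain of 5 exons that differs from the annotated chains of 4 exons by an added intron near the 3′ end, and the annotated chain was found in L1 and L6 only.

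STAC3 (chromosome 5, 22549008 to 22556330, minus strand), the adaptor that the voltage sensor needs to reach and open RYR1, ran from 140 through 216 to 229 FPKM in the H pigs. In the L pigs it ran from 100 through 181 to 226 FPKM. L1 and L6 were the lowest of the 12 pigs. The fold change was 0.26 ± 0.23 (SE; limma adjusted p = 0.802, exact permutation p = 0.284, two-sided), with an interval from -0.22 to 0.75. In L1 and L6 the longest piece assembled had 1063 and 501 bases, and in FPM they stood at 81.6 and 55.0 while the other pigs lay between 247 and 424. On that scale the fold change was 0.88 ± 0.47 (SE; limma unadjusted p = 0.085, adjusted p = 0.526). In H3, H5 and H6 a transcript ran past the annotated 3′ end into NDUFA4L2, the next gene on the same strand, by up to 10768 bases. In H3 it went beyond NDUFA4L2, into the span of SHMT2 on the plus strand. The reads of these genes cannot be told apart there. FPM counts all bases of a transcript, and in the longest ones of H3 and H6 only 30.3% and 54.5% lay on annotated STAC3 exons. Such transcripts were seen in H pigs only, so that bases past the 3′ end entered the FPM values of that group alone.

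**Figure D2:**
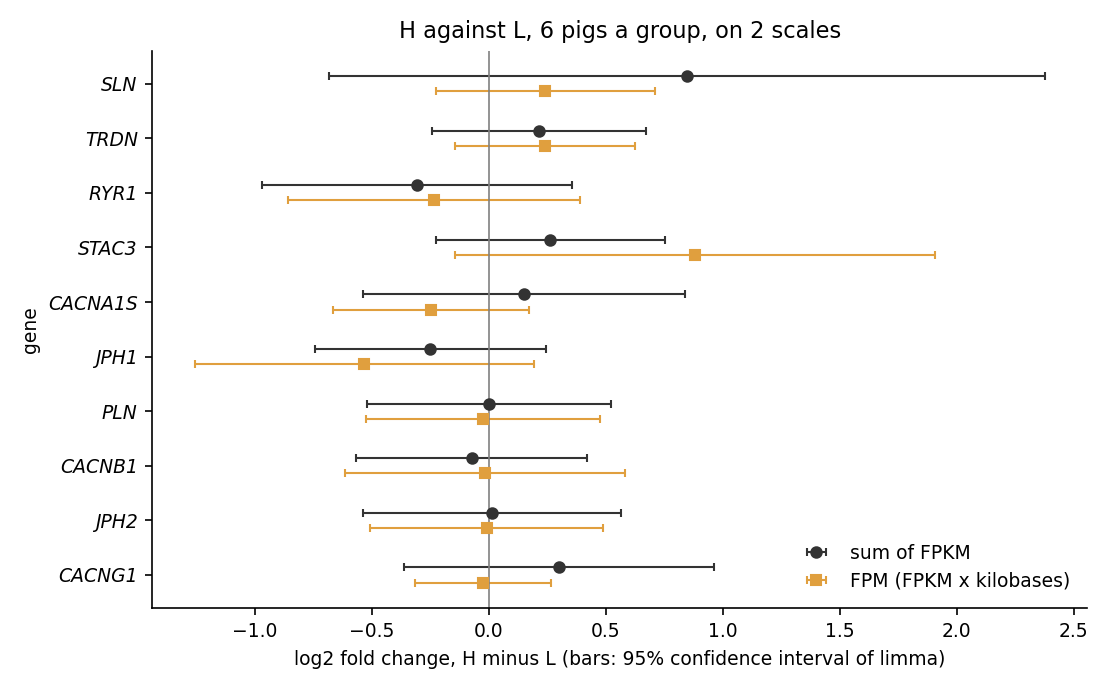
Log2 fold change of each gene (H minus L, 6 pigs a group) with the 95% confidence interval of limma, from the sum of FPKM (black circles) and from FPM (orange squares). All intervals on both scales include 0, and SLN has the widest on the FPKM scale, from -0.68 to 2.38.

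JPH1 (chromosome 4, 61628304 to 61716550, plus strand) and JPH2 (chromosome 17, 46590302 to 46665326, minus strand) each had an annotated chain of 6 exons in all 12 libraries. JPH1, the junctophilin of skeletal muscle, ran from 50.7 through 83.9 to 113 FPKM in the H group and from 77.7 through 91.0 to 138 FPKM in the L pigs. H5 and H2 were lowest and L2 highest, and in H2 and H5 the transcript was short, 2447 and 2400 bases against 4149 to 4469 elsewhere. The fold change was -0.25 ± 0.23 (SE; limma adjusted p = 0.816), and -0.53 ± 0.33 (SE) in FPM.

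JPH2, which is also the junctophilin of heart muscle, ran from 40.5 through 61.5 to 84.6 FPKM in the H group and from 34.8 through 62.4 to 99.4 FPKM in the L pigs. The medians lay within 1 FPKM of each other, and the fold change was 0.01 ± 0.25 (SE; limma adjusted p = 0.995; interval from -0.54 to 0.56). In 9 of 12 libraries (4 H, 5 L) a second, unannotated form with an own start and 5 exons carried 9.54 to 24.0 FPKM beside the annotated form.

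TRDN (chromosome 1, 39180544 to 39567245, plus strand), the anchor of calsequestrin at the release channel, ran from 295 through 549 to 680 FPKM in the H pigs. In the L pigs it ran from 344 through 429 to 524 FPKM. H1, H2 and H4 lay above every L pig and H5 below every one. The fold change was 0.21 ± 0.21 (SE; limma adjusted p = 0.831; interval from -0.24 to 0.67), and 0.24 ± 0.18 (SE) in FPM.

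Of the 219 internal exons that the annotation gives to the 10 genes, 217 were included in at least 1 library. Skipped in at least 1 library were 2, the 20-base exon of CACNB1 and exon 23 of TRDN. The latter is in both counts, since 10 libraries included it and 7 skipped it. A 165-base form of exon 2 of STAC3 was neither included nor skipped in any library. Exon 23 of 41 in TRDN is 51 bases long and keeps the reading frame when left out. It was included in all of the spanning FPKM in H2, H4, H5, L4 and L5. In H3 it was 68.0%, in H6 66.4%, in L3 62.3%, in H1 43.9% and in L1 26.0%, and in L2 and L6 the transcripts that span it all skipped it. The average was 79.7% ± 23.8 in the H pigs and 48.0% ± 46.3 in the L pigs (SD, n = 6 each), and the groups overlapped from 43.9 to 100%. No test was made of these shares, which rest on how Cufflinks divided reads between assembled forms, and a library with 100 or 0% may hold the other form unassembled. The exon is shown in capitals with 10 intron bases on each side (chr1:39483443-39483513, Sscrofa11.1, plus strand), as the exon by which the pigs differed most.
TRDN exon 23: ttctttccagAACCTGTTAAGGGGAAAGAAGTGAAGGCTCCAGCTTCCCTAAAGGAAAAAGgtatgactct

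A shorter TRDN was present as well. In 7 libraries (4 H, 3 L) a transcript ended 497 to 749 bases inside the intron after exon 21, and it carried 85.6 to 158 FPKM, or 19.2 to 40.8% of the FPKM of both ends together. The short form of 21 exons that the annotation does list, with a last exon of its own, was spliced in none of the 12 libraries. Of the 17 intron chains of TRDN, 13 were found in 1 library each, the same number as for RYR1 with 13 of 14.

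**Figure D3:**
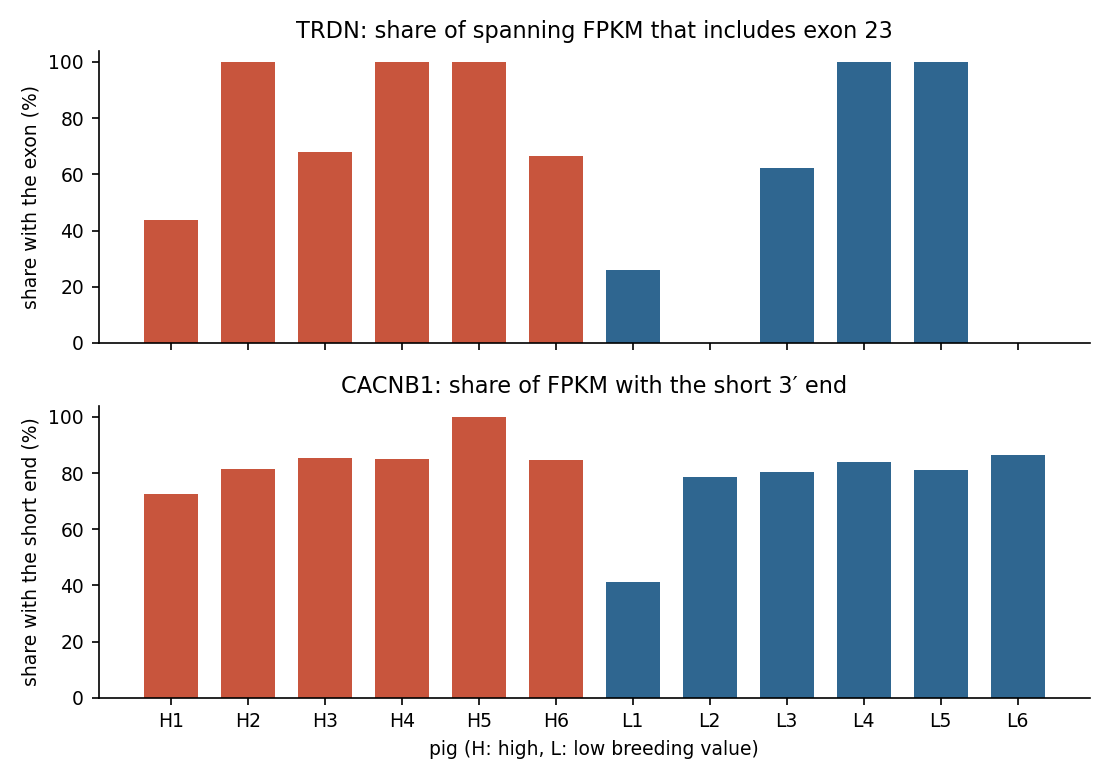
Bars give, for each of 12 pigs (red H, blue L), the share of spanning FPKM that includes exon 23 of TRDN (top) and the share of CACNB1 FPKM with the short 3′ end (bottom), in percent from 0. TRDN shares run from 0 in L2 and L6 to 100% in 5 pigs, while CACNB1 lies above 70% in every pig but L1 at 41.2%.

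SLN (chromosome 9, 36232955 to 36242405, minus strand), a SERCA inhibitor, had the widest spread of the 10 genes. In the H pigs it ran from 345 through 1671 to 2652 FPKM, and in the L pigs from 180 through 943 to 2096 FPKM. H1, L2, L4 and L5 formed a low set between 180 and 345 FPKM, H6 stood at 769, and the other 7 pigs lay at 1454 or above. The log2 fold change was 0.85 ± 0.70 (SE; limma adjusted p = 0.800, exact permutation p = 0.301, two-sided), and its interval from -0.68 to 2.38 spans a 0.62-fold to a 5.19-fold ratio.

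This spread went with the length of the assembled transcript. In H1, L2, L4 and L5 the SLN transcript was 5010 to 5062 bases long and contained the whole first intron of the annotated gene, 4055 bases at chromosome 9, 36238194 to 36242248. In H6 it was 2182 bases long with 36.7% of that intron. In the other 7 pigs it was 787 to 939 bases long, started inside the intron 92 to 242 bases before the second exon, and 4 of them (H3, H4, H5, L3) also held the annotated form of 3 exons at 177 to 728 FPKM. Since FPKM divides by this length, the same number of fragments gives a lower value in a longer transcript.

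In FPM the 12 pigs lay between 879 and 2396, a 2.73-fold range in place of 14.7-fold, and the coefficient of variation fell from 66.6 to 23.6%. H1 (1698), L2 (1691) and L5 (1569) then stood among the others, H4 was highest and L4 lowest. FPM counts all bases of a transcript, so that the intron bases enter these values. In H1, L2 and L5 16.9, 16.9 and 16.8% of the transcript's bases lay on annotated SLN exons. In the main transcripts of the pigs with short ones it was 74.2% (H4) to 88.3% (L1). Whether SLN was level over the pigs on exon bases alone cannot be read from FPM. The fold change on this scale was 0.24 ± 0.22 (SE; limma adjusted p = 0.716; interval from -0.23 to 0.71). Whether the intron was retained in RNA or joined by reads of unspliced RNA was not tested. The bases at both ends of the intron are shown in capitals, GT at its start and AG at its end, with the exon bases before and after (chr9:36242241-36242260 and chr9:36238186-36238205, Sscrofa11.1, minus strand), because the transcripts of the 4 pigs read through both sites.
SLN intron start: aagatggcacagGTagacgg
SLN intron end: cacctccctcAGactacttt

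**Figure D4:**
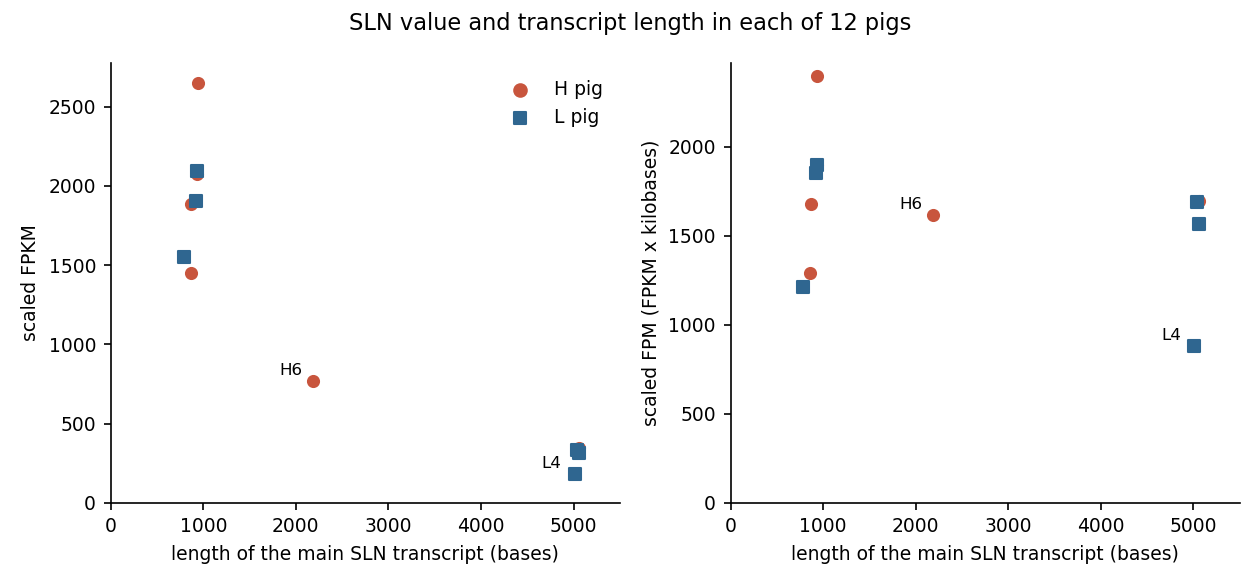
SLN value of each pig (red circles H, blue squares L) against the length of its main SLN transcript in bases, on the left in scaled FPKM and on the right in FPM, both axes from 0. The 4 pigs with transcripts of 5010 to 5062 bases lie at 180 to 345 FPKM, but 3 of them lie among the pigs with short transcripts in FPM, and L4 stays lowest at 879. FPM also counts the intron bases of these transcripts.

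PLN (chromosome 1, 43449354 to 43458925, minus strand), the SERCA inhibitor of heart, smooth and slow skeletal muscle, was assembled as the same transcript of 2 exons in all 12 libraries. It ran from 61.9 through 83.1 to 100 FPKM in the H group and from 56.9 through 73.0 to 157 FPKM in the L pigs. L4 was highest, followed by L5 and H4 at about the same level. The fold change was 0.002 ± 0.24 (SE; limma adjusted p = 1.00), with an interval from -0.52 to 0.53, which spans a 0.70-fold to a 1.44-fold ratio. Each transcript ran 1371 to 1385 bases past the annotated 3′ end, at a nearly identical position in the 12 pigs.

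The coding part of SLN lies within a single exon, of 31 codons before the stop, and every library covered it. It is given whole, with start and stop codon in capitals, as the inhibitor with the widest spread (chr9:36233741-36233836, Sscrofa11.1, minus strand).
SLN coding: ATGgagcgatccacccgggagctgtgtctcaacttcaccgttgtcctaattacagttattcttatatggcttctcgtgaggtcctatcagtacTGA

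SLN and PLN did not rise and fall together over the pigs. Pearson's r was -0.60 and Spearman's rho -0.40 between them on log2(FPKM + 0.5) over 12 pigs, and L4, with the lowest SLN, had the highest PLN. The highest of the 45 pairs was CACNB1 with JPH1 (r = 0.86, rho = 0.90), followed by JPH1 with JPH2 (r = 0.74, rho = 0.79) and CACNB1 with JPH2 (r = 0.74, rho = 0.73). The median of the 45 pairs was 0.22, and that of the 28 pairs without SLN and PLN 0.31, beside 0.04 over all 293761 pairs of genes of at least 50 FPKM. These are descriptions, since all genes of a pig share its library and assembly. H5 had the lowest value of the 12 pigs for CACNA1S, CACNB1, JPH1 and TRDN, and L2 the highest for CACNB1, CACNG1, JPH1 and JPH2.

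Fibre type was read from marker lists. The 10 fast fibre genes, such as MYLPF (9377 FPKM on average) and MYL1 (6865), summed to 27123 to 53613 FPKM in the H pigs and 29883 to 52715 in the L pigs. The 10 slow fibre genes, such as MYL2 (2754) and TNNC1 (1528), summed to 8355 to 12602 and 7040 to 14514 FPKM, with L4 highest. No fast fibre gene had an unadjusted p under 0.05. Of the 10 slow fibre genes 4 had a fold change above 0 and 6 below, and 1 (10%, beside 7.29% of all genes) had an unadjusted p under 0.05. It was MYH7B, at 21.4 ± 3.65 FPKM in the H and 14.2 ± 6.47 in the L pigs (SD, n = 6 each; limma unadjusted p = 0.0435, adjusted p = 0.680). Of the slow fibre genes MYH7 was listed at 0 in H6 and L4, and TNNI1 in L3, so that the slow sums of these pigs lack an abundant gene. Both genes are left out of the slow score below. The score of a pig was the mean z-score of those markers that were above 0 in all libraries, 10 fast and 8 slow ones. H5 had the lowest fast score and L2 the highest. Of the 12 libraries H5 also had the lowest coverage behind 1 FPKM (7.50) and the lowest share of coverage assigned to genes (41.5%). Its scaling factor was the largest (1.13), and its slow score was -0.46 beside a fast score of -1.37. The part of the library in the low values of H5 was not tested.

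With the fast score CACNB1 correlated at r = 0.70 (permutation p = 0.011) and rho = 0.67 (p = 0.020), JPH1 at r = 0.70 (p = 0.012) and rho = 0.69 (p = 0.017), STAC3 at r = 0.67 (p = 0.018) and rho = 0.77 (p = 0.0053), and JPH2 at r = 0.65 (p = 0.022) and rho = 0.69 (p = 0.017), all over 12 pigs by two-sided permutation tests with 100000 resamples. None held after adjustment over 12401 genes (the smallest adjusted p of the 4 was 0.364 for r and 0.324 for rho). Without H5 and L2, the pigs farthest from the median score, r fell to 0.38 for CACNB1, 0.38 for JPH1 and 0.40 for JPH2, and was 0.63 for STAC3. Within the H and L pigs r was 0.83 and 0.57 for CACNB1, 0.84 and 0.79 for JPH1, 0.75 and 0.63 for STAC3, and 0.97 and 0.40 for JPH2. The relations of CACNB1, JPH1 and JPH2 thus rested in large part on those 2 pigs.

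Of the 10 genes PLN was closest to the slow score, with r = 0.73 (permutation p = 0.0086, adjusted p = 0.690) and rho = 0.60 (p = 0.043, adjusted p = 0.591) over 12 pigs. Without L4 and H6, the pigs farthest from the median score, r was 0.40, and it was 0.23 within the H pigs and 0.92 within the L pigs. Without L4 alone it was 0.44, and with any other single pig left out 0.68 to 0.82, so that the size of r rested on L4. SLN had r = -0.50 (p = 0.096) and rho = -0.43 (p = 0.162) with the slow score, and r was -0.11 without the same 2 pigs and -0.17 without L4 alone. The other 8 genes had an r between -0.22 and 0.28. In all, 20 relations of the 10 genes with both scores were computed and none passed after adjustment.

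**Figure D5:**
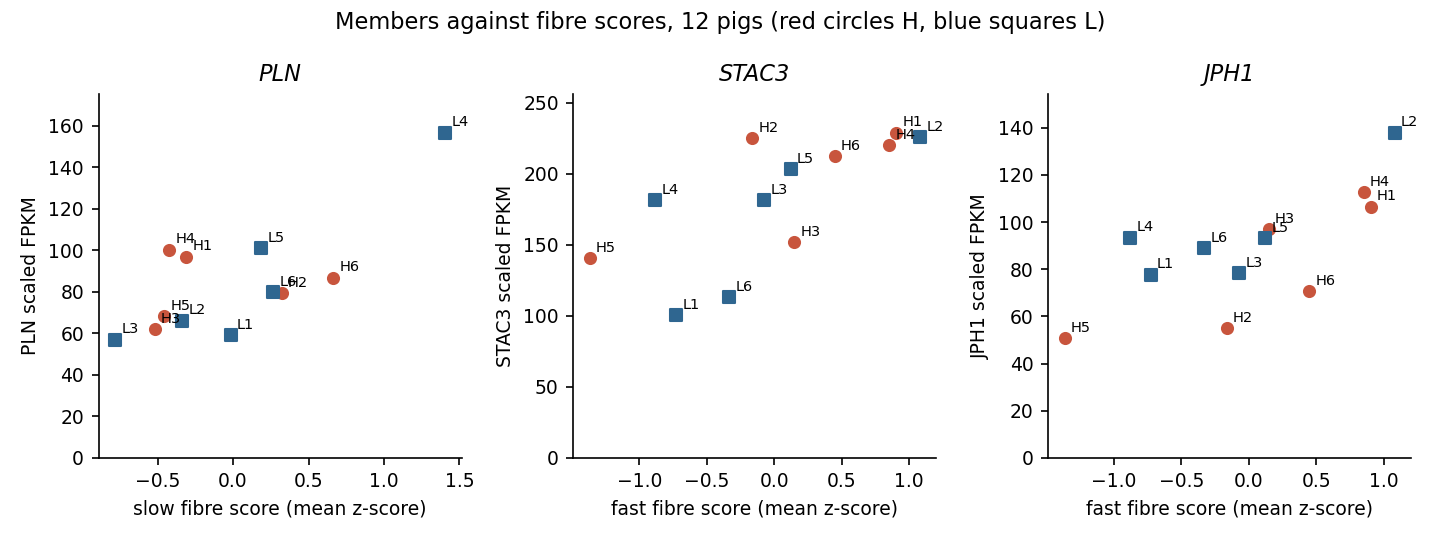
Scaled FPKM of PLN against the slow fibre score and of STAC3 and JPH1 against the fast fibre score, 1 point per pig (red circles H, blue squares L, labelled). L4 lies apart at the top right for PLN with 157 FPKM, and H5 and L2 mark the ends of the fast score.

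Other cell types were also checked, since PLN is made in smooth and heart muscle too. Of 7 listed heart markers MYH6 has no entry in the annotation, NPPA, NPPB and NKX2-5 were at 0 in all 12 libraries, and TNNI3 (8.20 FPKM on average) and TNNT2 (4.43) were the highest. TNNT2 reached 46.0 FPKM in H4 and 0 to 2.06 in the other 11 pigs, with a mean of 0.65 without H4. The 7 smooth muscle markers, led by ACTA2 (35.4) and SMTN (19.8), summed to 70.8 to 221 FPKM in the H and 64.7 to 128 in the L pigs. Of these 7 genes 6 had a fold change above 0. The exception was LMOD1, at 2.89 FPKM on average in the H pigs, with 3 of them at 0, and 7.26 in the L pigs, or 4.18 without L2 (limma unadjusted p = 0.0495 over all pigs, adjusted p = 0.680). Adipocyte markers such as PLIN4 (44.5) and FABP4 (42.3) summed to 106 to 208 FPKM in the H and 78.3 to 129 in the L pigs with RETN at 0, and endothelial markers such as VWF (36.7) and PECAM1 (21.1) to 48.6 to 116 and 34.4 to 94.4 with CLDN5 at 0. All 8 adipocyte markers tested had a fold change above 0, with CIDEC at an unadjusted p under 0.05 (2.74 against 0.87 FPKM, limma adjusted p = 0.569). All 5 endothelial markers tested had a fold change above 0, and 2 of them (40%, beside 7.29% of all genes) had an unadjusted p under 0.05. These were TEK at 3.23 in the H against 2.52 FPKM in the L pigs (limma adjusted p = 0.619) and KDR at 3.21 against 2.30 FPKM (limma adjusted p = 0.680). Their part in the levels of the 10 genes was not tested.

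The wider pathway was examined in the same fit. Of 86 further genes in 7 lists 84 are annotated and 78 were tested. None of the 78 passed an adjusted p of 0.1 by limma, and 6 of 78 (7.69%) had an unadjusted p under 0.05, close to the 7.29% of all genes tested. Their median log2 fold change was -0.002. By direction, 4 of the 6 had a fold change above 0 (background 3.93%) and 2 below (background 3.36%).

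Among 17 partners of the release channel 1 had an unadjusted p under 0.05. HOMER2, a scaffold of calcium signalling, ran from 36.4 to 85.8 FPKM in the H and from 70.5 to 112 in the L pigs (n = 6 each; log2 fold change -0.55 ± 0.20 SE, limma adjusted p = 0.619). The highest members were CASQ1 at 810 FPKM on average, with the libraries at 0 named above, and SRL at 421 FPKM. SRL, the sarcoplasmic reticulum protein sarcalumenin, ran from 92.8 to 1142 FPKM in the H and from 140 to 264 in the L pigs, with a log2 fold change of 1.28 ± 0.60 (SE; limma unadjusted p = 0.0548), and 0.39 in FPM. Of 10 tested genes of tubule and junction formation 0 had an unadjusted p under 0.05. The highest were TCAP, which caps titin, at 0 in 6 libraries and 644 to 1366 FPKM in the others, and BIN1, which shapes the tubules, at 453 FPKM on average.

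Among 10 tested genes of calcium uptake and buffering 1 had an unadjusted p under 0.05, MRLN, a skeletal muscle counterpart of SLN and PLN. It ran from 3.57 to 13.4 FPKM in the H and from 1.28 to 6.72 in the L pigs (n = 6 each; log2 fold change 0.83 ± 0.38 SE, limma unadjusted p = 0.0493, adjusted p = 0.680). Its level was far below that of SLN. The pumps themselves were high in both groups, ATP2A1, the SERCA of fast fibres, at 2271 FPKM on average and ATP2A2, that of slow fibres and heart, at 288 FPKM. Of 9 tested genes of store-operated and mitochondrial calcium entry it was 1, TRPC1, a membrane calcium channel, at 1.72 ± 0.60 against 0.95 ± 0.28 FPKM (SD, n = 6 each; limma adjusted p = 0.651). The highest of this list were SMDT1 at 105 and MCU at 43.8 FPKM, both parts of the mitochondrial calcium uniporter.

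Of 10 tested genes of membrane excitation 2 had an unadjusted p under 0.05, 1 in each direction. KCNJ11, the pore of the ATP-sensitive potassium channel, was at 21.3 ± 1.70 FPKM in the H and 31.0 ± 8.10 in the L pigs (SD, n = 6 each; log2 fold change -0.49 ± 0.17 SE, limma adjusted p = 0.619). ATP1B1, a subunit of the sodium pump, was among the highest of this list at 78.7 FPKM.

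Paralogs of the channel subunits were low beside the 10 genes. The highest of 15 were CACNA2D1, the subunit of the same channel that lies outside the membrane, at 41.8 FPKM, and CACNG6, a gamma subunit, at 12.1 FPKM, while CACNA2D2 and CACNB4 were at 0 throughout. Of 11 tested 1 had an unadjusted p under 0.05, CACNB2, the beta subunit of heart, at 0.59 ± 0.26 against 0.22 ± 0.13 FPKM (SD, n = 6 each; limma adjusted p = 0.619). Of 11 genes of calcium-activated signalling 0 had an unadjusted p under 0.05, and CAMK2A at 97.5 and PPP3R1 at 69.7 FPKM were the highest.

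Genes whose pattern over the 12 pigs was most like that of a member were sought among 10439 genes above 0 in all libraries, by Pearson's r of log2(FPKM + 0.5). For RYR1 they included IGFBP6 (r = 0.88) and GRINA (0.88), and for CACNA1S LOC100624329 (0.87) and KMT2B (0.86). For STAC3 they were BOLA3 (0.89), IVD (0.89) and UHRF1BP1L (0.85), for SLN TNFRSF1B (0.87), TBCA (0.82) and CD163 (0.81), and for PLN COPS7B (0.86), C16H5orf51 (0.85) and LGALSL (0.85). Each is among the 3 highest of 10439 coefficients over the same 12 libraries, so that values of this size carry no test.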

How the data were processed

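Reads were trimmed (Trim Galore), aligned to the Sscrofa11.1 build with TopHat 2.1.0 under Ensembl guidance, and assembled per library with Cufflinks 2.2.1 by the authors. FPKM and coverage of each transcript are deposited as text attributes beside its exons, with a deposited score column that was not used. They hold no gene names and no counts.

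Transcripts were assigned with bedtools 2.31.1 to genes of NCBI RefSeq Annotation Release 106 of Sscrofa11.1 (same strand, most shared exonic bases). Annotated exons less than 10 bases apart were joined. Of 8919 introns on chromosome 9, 98.1% had standard splice bases on this sequence. FPKM were summed per gene and scaled by median ratios, with factors from 0.892 to 1.13.

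Genes reaching a group mean of 0.5 FPKM were tested on log2(FPKM + 0.5), which understates changes of low genes, with limma 3.58.1 (trend, two-sided, Benjamini-Hochberg, threshold 0.1), tested on simulated data. Python 3.11.15, R 4.3.3 and samtools 1.23.1 were used. Named were the 10 members, per pathway list those with an unadjusted p under 0.05 and the 2 highest, per marker list the 2 highest and those at 0, and the 3 most similar genes. NDUFA4L2, SHMT2, MYH7, MYH7B, TNNI1, LMOD1, CIDEC, TEK and KDR are outside this rule, picked once their values were known. Members and lists were chosen with earlier results of these data known. Leaving single pigs out of the PLN and SLN relations and the highest library out of marker means were added after seeing the data. Some items that this rule names are not reported here.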

Additional observations from a re-analysis of the deposited data

Results flagged for a closer look

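Among 20 groups of 6 values (10 genes, H and L), 1 held a value far from the rest by Dixon's criterion, about as many as chance gives, which is 1 in 20. JPH1 in L2 stood at 138 FPKM, and the other L pigs lay between 77.7 and 93.4 FPKM. The gap made up 0.74 of the range, above the critical value of 0.625. L2 held a second JPH1 transcript of 2201 bases at 39.9 FPKM beside the whole one at 98.1 FPKM. L2 also had the highest fast fibre score of the 12 pigs. The part of either in the value was not tested.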

How the results depend on the processing

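None of the 10 members passed the threshold under any of 17 other settings or with any of 12 single pigs left out (290 fold changes, 33 of opposite sign). Genes called, 1 in the main analysis, were 0 with a minimum mean of 1 FPKM, 0 among genes above 0 in all libraries, 2 without the trend, 2 with array weights, 2 with the slow fibre score as a covariate, 3 in FPM (added after seeing the data; 1324 genes at an unadjusted p under 0.05 against 904) and 0 to 3 with single pigs left out. With the individual number as a replicate block it was 0 (888 at an unadjusted p under 0.05); same-numbered pigs shared only a number (correlations of deviations -0.08 to 0.06, and 1 of 6 fitted best with its own).

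Signs turned in these cases. With annotated intron chains alone RYR1 was 2.85, CACNA1S -3.99 (unadjusted p = 0.017) and CACNG1 -2.05, since libraries without the chain count as 0. With coverage credited to bases on annotated exons CACNA1S was -0.34 and PLN -0.0035. In FPM CACNA1S was -0.25, CACNG1 -0.0235, JPH2 -0.0072 and PLN -0.0229. CACNB1 was 0.0436 after quantile normalization. PLN was -0.00996 as deposited, -0.0498 with array weights, -0.00337 with depth as a covariate and, without H4 and L3, -0.16, where JPH2 was -0.23. Leaving out single pigs gave -0.053 to 0.32 for CACNA1S, -0.16 to 0.0894 for CACNB1, -0.00183 to 0.43 for CACNG1, -0.15 to 0.15 for JPH2 and -0.10 to 0.19 for PLN. The cause was not tested in the other cases. RYR1 kept its sign without H4 and L3, at -0.61 (unadjusted p = 0.036). Of 9 neighbouring levels 4 kept their order with annotated chains and 5 with exon coverage. Counting transcripts of at least 1 FPKM left 2 skipped exons. Depth is known only as coverage, and precision is limited by 6 pigs a group.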
